A study of Arabidopsis thaliana with 9 samples.

Results

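CHI (AT2G43570), a putative chitinase gene, lies on chromosome 2 of Arabidopsis thaliana in a run of chitinase-like genes with consecutive locus numbers. The members described here are CHI, AT2G43580, AT2G43590, AT2G43610 and AT2G43620, matched by symbol or locus to probe sets that are paired with exactly 1 gene. All 5 genes were found, each with 1 probe set, among 16548 genes with such a probe set. In the RefSeq gene order of the assembly TAIR10.1 they are direct neighbours except that AT2G43600, no member, lies between AT2G43590 and AT2G43610. The genes enter by position, but the cluster was picked on values already known from these arrays: the high log2 signal of CHI under 2,5-DCB and the small p-value of AT2G43610 between the exposures. Those 2 values, and the difference of CHI between the exposures, which uses the same 2,5-DCB arrays, are therefore given as descriptions with no test and are left out of the counts of calls. The counts support nothing about the cluster.

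The series compared whole Arabidopsis plants, 21 days old, in 3 groups of 3 arrays, grown for 21 days on solidified nutrient medium with sucrose under 16 h of light and 8 h of dark at 25 °C. Control plants had acetone, the carrier solvent, and neither compound. The first exposed group was given 50 mg per L of 2,5-DCB, a dichlorinated biphenyl. The second was given 5 mg per L of 4'-OH-2,5-DCB, which carries an added hydroxyl group. Since dose and hydroxyl group changed together, their effects cannot be told apart. Each treatment had 6 boxes of 5 plantlets, and nothing in the labels ties an array to a box, so the spread behind each p-value is that between arrays and may be technical. No ecotype is stated.

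Chitinases cut chitin, a polymer of N-acetylglucosamine that is found in fungal cell walls and insect cuticles and not in plants. Plants make many of them, often from tandem gene copies, and several kinds are counted among the pathogenesis-related proteins. Their transcripts are known to respond to infection, wounding, senescence and hormone signals as well as to other stresses.

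Values are log2 signals per probe set. A signal depends on the probe sequence, so levels are compared between arrays for 1 gene and never between genes. Probe sequences were not used here, and related tandem copies may share signal. Replicate 1 of 4'-OH-2,5-DCB stood apart from the other 8, with a narrower spread of signals (SD 1.684, where the others had 2.128 to 2.203), and its 25th percentile was 3.72 against 2.80 to 3.01. Some of the results that rest on it are also given without it. Of the 5 genes, only AT2G43580 fell below the 25th percentile of an array, on 1 of 9.

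CHI was read at log2 signals of 7.80, 4.45 and 6.29 in the control plants, at 9.59, 9.79 and 10.46 under 2,5-DCB and at 6.72, 7.66 and 6.86 under 4'-OH-2,5-DCB. All 3 arrays of 2,5-DCB lay above every other array, while the arrays of 4'-OH-2,5-DCB lay within the range of the controls. The mean log2 signals ± SD were 6.18 ± 1.68, 9.95 ± 0.45 and 7.08 ± 0.51 (n = 3 each). The difference from control was 3.77 (SE 0.70) under 2,5-DCB, a 13.6-fold higher level with a 95% interval of 4.59 to 40.4-fold. Control replicate 2 was the low one: without it the log2 difference was 2.90, and without control replicate 1, the high one, it was 4.58. Under 4'-OH-2,5-DCB the log2 difference was 0.90 (95% interval -0.66 to 2.47), which did not pass (limma adjusted p 0.5), and it was 1.72 without control replicate 1 and 0.04 without control replicate 2. With whole plants, a change in the number of cells that make a transcript and a change in the amount per cell cannot be told apart, here or in any value below.

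**Figure D1:**
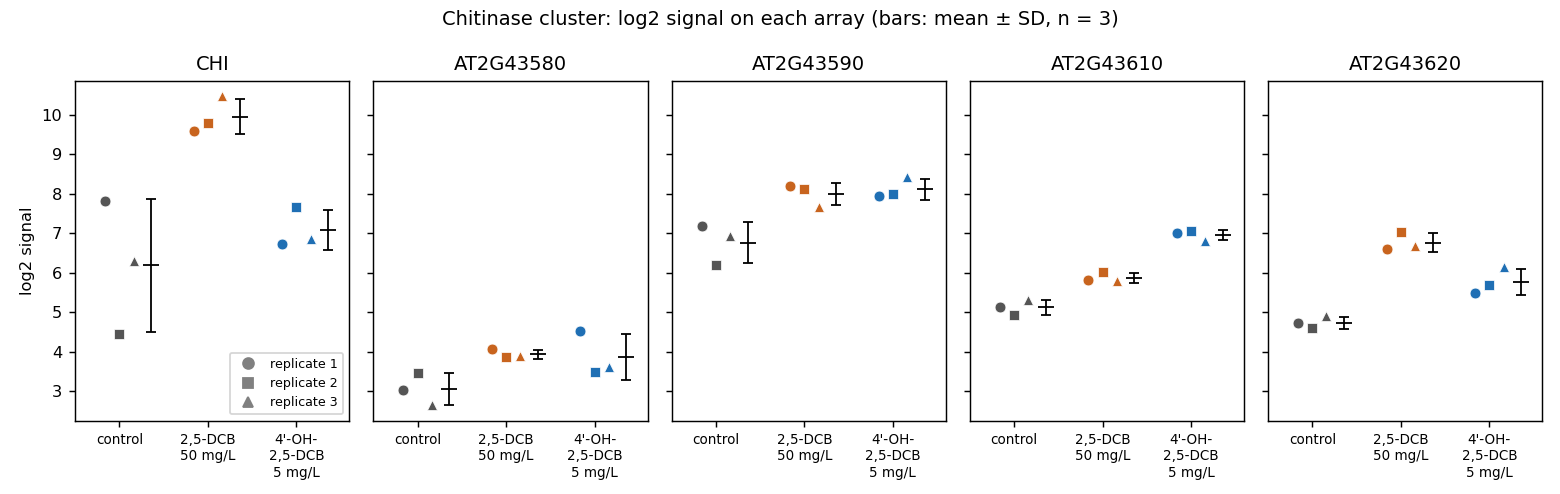
Log2 signal (vertical axis) of each of the 5 cluster genes on each of the 9 arrays, by group; the symbol gives the replicate number, and the black bar gives the mean ± SD of 3 arrays. Heights are comparable between arrays within a panel and not between panels. CHI is highest on the 3 arrays of 2,5-DCB, at 9.59 to 10.46, and AT2G43610 on the 3 arrays of 4'-OH-2,5-DCB, at 6.81 to 7.05.

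AT2G43620, the last chitinase-like gene of the run, was read at 4.71, 4.59 and 4.89 in the control, at 6.60, 7.03 and 6.66 under 2,5-DCB and at 5.49, 5.69 and 6.14 under 4'-OH-2,5-DCB. The 3 groups did not overlap, and 2,5-DCB was highest. It rose 4.10-fold under 2,5-DCB (log2 change 2.03, SE 0.21, limma adjusted p 0.00208), and this call was kept with any of the 9 arrays left out. Under 4'-OH-2,5-DCB it rose 2.06-fold (log2 change 1.04, SE 0.21, limma adjusted p 0.0319). That call was narrow: it was lost in 8 of 9 fits with 1 array left out, at adjusted p-values of 0.0508 to 0.146, and was kept only without 4'-OH-2,5-DCB replicate 1 (0.011). After centring of array medians its adjusted p was 0.0546.

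AT2G43610, the direct neighbour of AT2G43620 among tested genes, showed the opposite order. It was read at 5.14, 4.93 and 5.30 in the control, at 5.81, 6.01 and 5.78 under 2,5-DCB and at 7.01, 7.05 and 6.81 under 4'-OH-2,5-DCB. Again the 3 groups did not overlap, but 4'-OH-2,5-DCB was highest, and the SD within a group was at most 0.19. Under 4'-OH-2,5-DCB the gene rose 3.58-fold (log2 change 1.84, SE 0.16, limma adjusted p 0.00143), a call kept with any of the 9 arrays left out. The arrays behind it also entered the value on which the cluster was picked, so the call supports nothing. Under 2,5-DCB it rose 1.68-fold (log2 change 0.75, SE 0.16, limma adjusted p 0.0336). The smaller rise lost its call without any 1 of the 6 control and 2,5-DCB arrays, at adjusted p-values of 0.0634 to 0.156, and after quantile normalization (0.0695).

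AT2G43590 rose by nearly the same amount in both exposed groups. Its log2 signals were 7.17, 6.18 and 6.92 in the control, 8.18, 8.11 and 7.66 under 2,5-DCB and 7.94, 7.99 and 8.41 under 4'-OH-2,5-DCB. Both exposed groups lay above all control arrays and overlapped each other. The rise was 2.34-fold under 2,5-DCB (log2 change 1.23, SE 0.27, limma adjusted p 0.0368) and 2.56-fold under 4'-OH-2,5-DCB (1.36, SE 0.27, adjusted p 0.0335). The first call was lost without control replicate 2 or 3, any 1 array of 2,5-DCB or 4'-OH-2,5-DCB replicate 2, at adjusted p-values of 0.0532 to 0.154. The second was lost in 7 of 9 such fits, at 0.0545 to 0.112, and was kept without control replicate 1 (0.0476) or 4'-OH-2,5-DCB replicate 1 (0.0264).

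AT2G43580, next to CHI, was the dimmest against the arrays' own percentiles and did not pass in either comparison. Its log2 signals were 3.03, 3.46 and 2.65 in the control, 4.06, 3.85 and 3.88 under 2,5-DCB and 4.53, 3.47 and 3.60 under 4'-OH-2,5-DCB. The arrays of 4'-OH-2,5-DCB lay above the controls only narrowly, and the highest of them was replicate 1, the array with the narrow range. The log2 change was 0.88 (95% interval 0.21 to 1.56, limma adjusted p 0.159) under 2,5-DCB and 0.82 (0.15 to 1.49, adjusted p 0.205) under 4'-OH-2,5-DCB. With replicate 1 of the hydroxylated compound left out these were 0.88, which then passed (adjusted p 0.0209), and 0.49 (0.228). In that fit 12.9% of all probe sets were called under 2,5-DCB, beside 4.65% with all arrays.

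Of the 4 genes other than CHI, 3 were called higher under 2,5-DCB in limma at an adjusted p of 0.05 over all 16722 probe sets, and 0 lower. Over all probe sets 1.82% were called higher in that comparison and 2.82% lower. Under 4'-OH-2,5-DCB 3 of 5 were called higher and 0 lower, against 1.00% and 1.90% of all probe sets. The 4 genes all had their 3 arrays of 2,5-DCB above the 3 controls, as did 16.8% of all probe sets. In the 4'-OH-2,5-DCB group this held for 4 of 5, against 11.2%. The median log2 change of all 5 genes, CHI included, was 1.23 and 1.04, beside 0.04 and 0.10 over all probe sets tested. Because the cluster was picked with these comparisons known, nothing is read from the counts, and because both comparisons use the same control arrays, they are not independent of each other. Control replicate 2 was the lowest control array for 4 of the 5 genes, while it was lowest for 25.3% of all probe sets. That array enters both changes of a gene. Without it the log2 changes under 2,5-DCB were 0.94 for AT2G43590, 0.65 for AT2G43610 and 1.97 for AT2G43620. With all arrays they were 1.23, 0.75 and 2.03. AT2G43580 went the other way, at 1.09 without that array and 0.88 with it. The part of control replicate 2 in the shared rises was not tested. With 1 array left out, the count of 3 under 2,5-DCB ranged from 1 (without control replicate 2 or 3, or any 1 array of 2,5-DCB) to 4 (without 4'-OH-2,5-DCB replicate 1). Its value was 2 without control replicate 1 or 4'-OH-2,5-DCB replicate 2. Under 4'-OH-2,5-DCB the count ranged from 1 to 3, and was 1 without control replicate 2 or 3, any 1 array of 2,5-DCB, or replicate 2 or 3 of 4'-OH-2,5-DCB. AT2G43620 under 2,5-DCB was called in every one of these fits. So was AT2G43610 under 4'-OH-2,5-DCB, but its arrays also entered the value on which the cluster was picked. That call therefore supports nothing, and AT2G43610 is in the main counts of both comparisons.

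**Figure D2:**
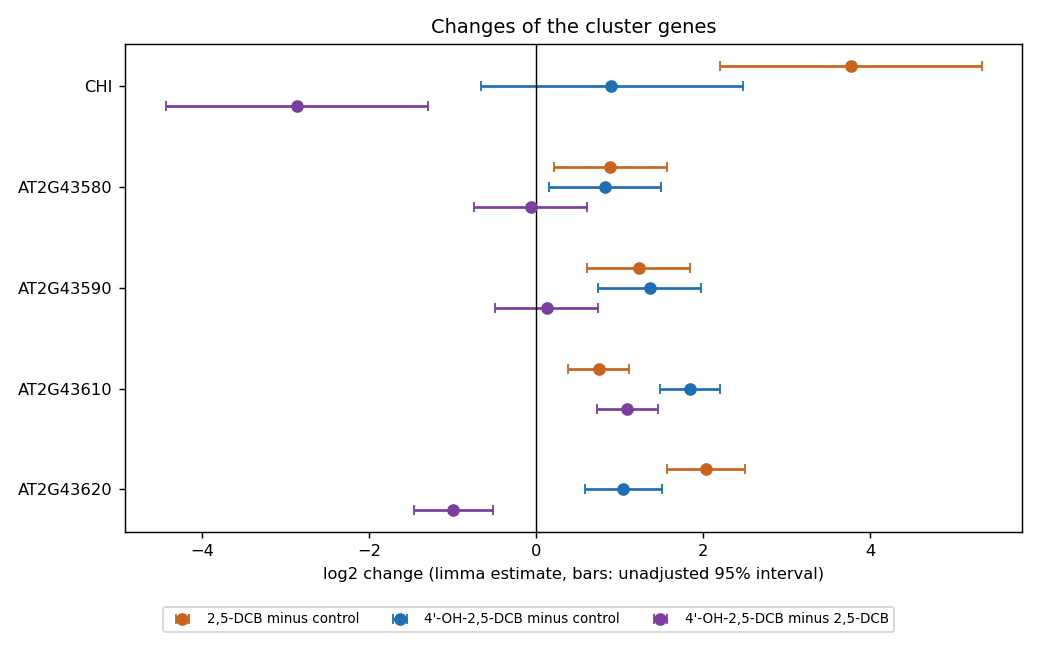
Log2 change (horizontal axis) of each cluster gene for each exposure less control, and for the hydroxylated compound less the parent one, with points for the limma estimate and bars for its unadjusted 95% interval. Every change from control lies above 0, and the contrast of the exposures runs from -2.86 for CHI to 1.09 for AT2G43610.

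The contrast of the exposures asked which of these genes differed between 2,5-DCB and 4'-OH-2,5-DCB at the doses used. CHI was lower under 4'-OH-2,5-DCB by 2.86 on the log2 scale, with a 95% interval of -4.43 to -1.29, and all 3 arrays lay below those of 2,5-DCB. AT2G43620 had a difference of -0.99 (-1.46 to -0.52), again with all 3 arrays below. AT2G43610 had a difference of 1.09 (0.73 to 1.46) the other way. AT2G43590 differed by 0.13 (-0.49 to 0.74) and AT2G43580 by -0.06 (-0.74 to 0.61), and the arrays of both genes overlapped. These intervals leave room for differences of up to 0.74 in size. Of the 3 genes not picked on these arrays, 0 were called after adjustment over all probe sets: the limma adjusted p was 0.168 for AT2G43620, 0.842 for AT2G43590 and 0.937 for AT2G43580. In this contrast 0.00% of all probe sets were called and 9.90% had an unadjusted p under 0.05, as had 1 of the 3, AT2G43620. Arrays of 4'-OH-2,5-DCB all lay above those of 2,5-DCB for 6.89% of probe sets and all below for 8.35%. Without 4'-OH-2,5-DCB replicate 1 the differences were 1.07 for AT2G43610, -2.68 for CHI and -0.85 for AT2G43620 (limma adjusted p 0.0963). That CHI and AT2G43620 were higher with 2,5-DCB and AT2G43610 with 4'-OH-2,5-DCB is thus a description of these 9 arrays.

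The difference between a pair of genes on the same array is free of any shift that moves the whole array. AT2G43620 minus AT2G43610 was -0.43, -0.33 and -0.41 on the control arrays, 0.80, 1.02 and 0.88 under 2,5-DCB and -1.52, -1.36 and -0.67 under 4'-OH-2,5-DCB. The exposed groups lay on opposite sides of the controls with no overlap. Since AT2G43610 was among the genes the cluster was picked on, this separation is given as a description. Only shifts of this difference between groups carry meaning, since its level depends on the probes. The mean shift from control was 1.29 in the 2,5-DCB group and -0.79 in the 4'-OH-2,5-DCB group, so the groups of exposed plants were 2.08 apart. With 1 array left out the latter difference ranged from -2.34 to -1.92, and it was -2.17 after quantile normalization. Among all 16721 pairs of probe sets that follow each other in locus order, 0.508% had exposed groups on opposite sides of the controls in this way. Arrays did not overlap for 33.9% of these pairs between 2,5-DCB and control, for 23.1% between 4'-OH-2,5-DCB and control and for 17.1% between the exposures. The pair, out of 10 among the members, was singled out after its values were seen and has no test. Of those 10, it alone did not overlap the controls under 4'-OH-2,5-DCB. The share of 0.508% is no p-value for it, and 3 arrays against 3 could not give an exact p below 0.1.

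**Figure D3:**
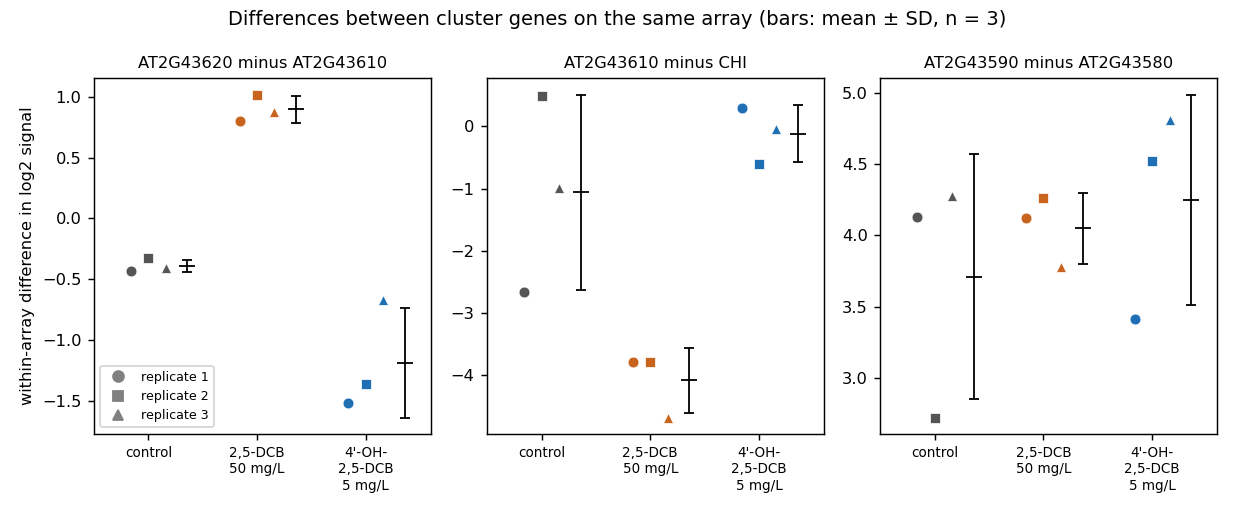
Difference in log2 signal between a pair of cluster genes on the same array (vertical axis) by group, with symbols for the replicate number and black bars for the mean ± SD of 3 arrays; each panel has its own scale. AT2G43620 minus AT2G43610 lies at 0.80 to 1.02 under 2,5-DCB and at -1.52 to -0.67 under 4'-OH-2,5-DCB, on either side of the controls.

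AT2G43610 minus CHI was -2.67, 0.48 and -0.99 on the control arrays, -3.78, -3.78 and -4.68 under 2,5-DCB and 0.29, -0.61 and -0.05 under 4'-OH-2,5-DCB. The exposed groups were far apart, but those of 4'-OH-2,5-DCB lay within the range of the controls. AT2G43590 minus AT2G43580 overlapped in all 3 groups, between 2.72 and 4.81. Across the 9 arrays CHI correlated most with AT2G43620 (Pearson r 0.83) and least with AT2G43610 (0.14), while AT2G43590 had r of 0.78 with both AT2G43610 and AT2G43620. After the group means were removed this order did not hold. The correlation of CHI was then 0.10 with AT2G43620, 0.43 with AT2G43610, 0.58 with AT2G43590 and -0.48 with AT2G43580. These correlations share arrays and groups and are given as descriptions.

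The genes around the cluster gave no calls. Of 13 tested genes from AT2G43470 to AT2G43720 that are not members, 0 were called in limma in either comparison with control. Over all probe sets 4.65% and 2.91% were called, so a count of 0 among 13 is near that share. Nothing is read from it. In the 2,5-DCB comparison 2 genes and in that of 4'-OH-2,5-DCB 3 had an unadjusted p under 0.05, as had 16.1% and 17.3% of all probe sets. The median log2 change of the 13 genes was 0.23 and 0.25, beside 0.04 and 0.10 over all probe sets. AT2G43600, the chitinase-like gene inside the run, was read at 2.85, 3.38 and 2.75 in the control, 3.41, 3.60 and 3.38 under 2,5-DCB and 3.81, 3.91 and 3.45 under 4'-OH-2,5-DCB, close to the 25th percentile of the arrays. Its log2 changes of 0.47 and 0.73 did not pass (limma adjusted p 0.309 and 0.105). AT2G43480 had 0.41 and 0.99 (adjusted p 0.589 and 0.0978). A count of 1 gene appeared in 2 of the fits with 1 array left out: 1 lower under 2,5-DCB without 4'-OH-2,5-DCB replicate 1, and 1 higher under 4'-OH-2,5-DCB without that group's replicate 3.

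Of 20 other genes listed as chitinases or chitin-binding proteins, 13 were tested, among them AT2G43600. None was called under 2,5-DCB in limma, beside 1.82% of all probe sets called higher and 2.82% lower. Under 4'-OH-2,5-DCB 1 rose, beside 1.00% of all probe sets called higher. An unadjusted p under 0.05 was found for 5 of 13 and 4 of 13, beside 16.1% and 17.3% of all probe sets. Of the 5, 4 had changes above 0, and AT4G19820, named after its values were seen, had -0.86 (limma adjusted p 0.299). The riser was ChiC (AT4G19810), a class V chitinase gene outside the cluster, at 6.04, 5.85 and 5.89 in the control, 6.69, 6.61 and 6.70 under 2,5-DCB and 6.51, 6.99 and 7.14 under 4'-OH-2,5-DCB. Both exposed groups lay above the controls. Its log2 change was 0.74 under 2,5-DCB (limma adjusted p 0.054) and 0.96 under 4'-OH-2,5-DCB (adjusted p 0.0283). The list's count under 4'-OH-2,5-DCB was 0 in 8 of the 9 fits with 1 array left out and stayed at 1 only without 4'-OH-2,5-DCB replicate 1. Without that array the count under 2,5-DCB was 2, and it was 1 after quantile normalization. The list's median log2 change was 0.13 and 0.43. The well-known basic chitinase PR3 and the endochitinase EP3 were among the listed genes without a named probe set and were not analysed here.

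**Figure D4:**
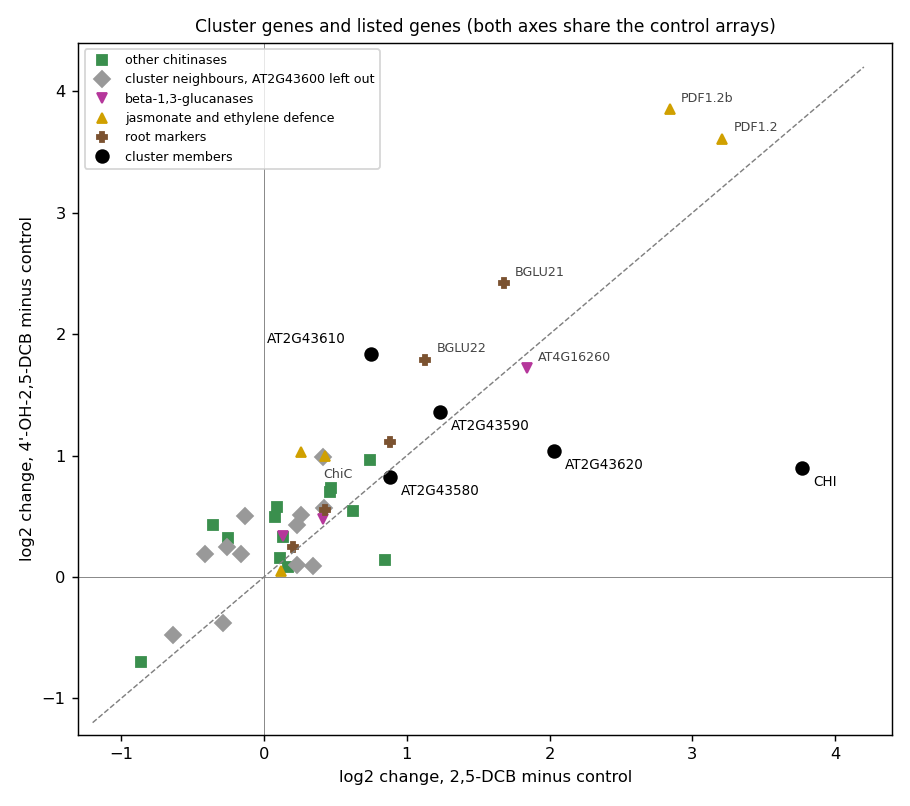
Log2 change under 4'-OH-2,5-DCB (vertical axis) against that under 2,5-DCB (horizontal axis), both minus control, for the cluster genes and the tested genes of 5 lists, 1 point per gene; the dashed line marks equal changes. Both axes use the same control arrays, which by itself spreads points along that line. CHI, at 3.77 and 0.90, and AT2G43620, at 2.03 and 1.04, lie below the line and AT2G43610, at 0.75 and 1.84, above it.

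Few other genes of chitin defence carried a named probe set. Of 8 listed beta-1,3-glucanases, enzymes that cut the other main polymer of fungal walls, 3 were tested. Under 2,5-DCB 1 was called higher, beside 1.82% of all probe sets. This was AT4G16260, at 7.45, 5.81 and 6.50 in the control, 8.45, 8.04 and 8.80 under 2,5-DCB and 8.69, 8.23 and 8.00 under 4'-OH-2,5-DCB. Its log2 change was 1.84 under 2,5-DCB (limma adjusted p 0.0314) and 1.72 under 4'-OH-2,5-DCB (adjusted p 0.0518), and control replicate 2 was again its lowest array. The count under 2,5-DCB was 0 without control replicate 2 or 3 or any 1 array of 2,5-DCB, and under 4'-OH-2,5-DCB it was 1 without control replicate 1. The kinase gene PBL27 (AT5G18610), which acts downstream of the chitin receptor, was the only tested gene of 9 for chitin perception, with log2 changes of -0.18 and -0.36 (limma adjusted p 0.859 and 0.421). GRX480, a glutaredoxin gene induced by salicylic acid, was the only one of 19 salicylic acid genes, with 0.20 and 0.04 (adjusted p 0.908 and 0.945). PR1, PR2 and PR5 were not analysed here, so these values say little about that pathway.

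In the jasmonate and ethylene list, 5 of 15 genes were tested. The plant defensin gene PDF1.2 rose in both groups, by 3.21 and 3.61 on the log2 scale (limma adjusted p 0.0419 and 0.0353), and PDF1.2b by 3.85 under 4'-OH-2,5-DCB (adjusted p 0.0273), with 2.84 under 2,5-DCB (0.0627). The shares of all probe sets called higher in these comparisons were 1.82% and 1.00%. PDF1.2 had its lowest reading in control replicate 2, as CHI did. With 1 array left out the counts ranged from 0 to 2 under 2,5-DCB and from 0 to 3 under 4'-OH-2,5-DCB. The first was 0 without control replicate 2 or 3, any 1 array of 2,5-DCB or 4'-OH-2,5-DCB replicate 2, and 2 without 4'-OH-2,5-DCB replicate 1. The second was 0 without control replicate 2 or 3, 2,5-DCB replicate 3 or 4'-OH-2,5-DCB replicate 2, 1 without 2,5-DCB replicate 2, and 3 without 4'-OH-2,5-DCB replicate 3. Of 10 senescence genes 3 were tested, and 1 was called higher under 2,5-DCB, as were 1.82% of all probe sets. This was WRKY6, a transcription factor gene of senescence and defence. It rose by 1.90 under 2,5-DCB (limma adjusted p 0.00303), with 0.82 under 4'-OH-2,5-DCB (adjusted p 0.0887). SAG101 had 0.22 and 0.02 (adjusted p 0.756 and 0.968). SAG29 went the other way, with -0.59 and -0.78 (0.41 and 0.239). Both are named after their values were seen.

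Among the root markers the calls were all in beta-glucosidase genes. Of 20 listed, 5 were tested, and 2 rose in the 2,5-DCB group and 3 in the 4'-OH-2,5-DCB group: the beta-glucosidase genes BGLU21 (1.68 and 2.42) and BGLU22 (1.13 and 1.79) in both, and PYK10 (0.88 and 1.11) only past the threshold under 4'-OH-2,5-DCB. Their limma adjusted p-values were 0.034 and 0.0117, 0.0438 and 0.00999, and 0.077 and 0.0438. Of all probe sets, 1.82% were called higher with the parent compound and 1.00% with the hydroxylated one. The remaining tested markers, the root hair expansin genes EXPA7 (0.43 and 0.55) and EXPA18 (0.20 and 0.25), did not pass (0.489 and 0.303, 0.836 and 0.557), and are named after their values were seen. Between the exposures the changes of the 5 markers ran from 0.05 to 0.74, none called. The mean log2 signal over the 5 markers was 5.17 to 5.59 in the control, 6.09 to 6.50 under 2,5-DCB and 6.47 to 6.91 under 4'-OH-2,5-DCB. With 1 array left out the counts ranged from 0 to 3 and from 2 to 3; the first was 0 without control replicate 2 or 3, any 1 array of 2,5-DCB or 4'-OH-2,5-DCB replicate 3, and 1 without control replicate 1. Of 20 leaf markers 4 were tested, and the light-harvesting gene LHCB4.2 fell under 2,5-DCB (-0.95, limma adjusted p 0.0308). In that comparison 2.82% of all probe sets were called lower. Under 4'-OH-2,5-DCB LHCB4.2 had -0.57 (adjusted p 0.184). LHB1B2 (-0.64 and -0.86) and LHCB4.1 (-0.50 and -0.50) did not pass (0.359 and 0.2, 0.251 and 0.241). LHCB4.3 went the other way under 2,5-DCB, with 0.29 and -0.08 (0.522 and 0.811). These uncalled genes are named after their values were seen. The mean log2 signal over the 4 leaf markers was 8.76 to 8.96, 8.27 to 8.53 and 8.03 to 8.59. The leaf count was 0 without any 1 control array or 2,5-DCB replicate 2 or 3, and 3 without 4'-OH-2,5-DCB replicate 1. The part of roots or of leaves in the changes of the chitinase genes was not tested. None of 9 flower markers had a named probe set.

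The genes whose pattern over the 9 arrays was most like that of each member were ranked by Pearson r over all other tested genes. For CHI they were AT4G38540, AT1G57630, AT1G51860, AT3G51330 and AT3G18250, with r of 0.972 to 0.985. Their log2 changes were 1.74 to 2.94 under 2,5-DCB and 0.48 to 1.12 under 4'-OH-2,5-DCB. None overlapped the controls in the first group, where 16.8% of all probe sets had their 3 arrays above the controls. For AT2G43620 they were AT3G03420, AT1G51790, AT1G70780, AT3G18580 and AT3G09010 (0.969 to 0.978), with changes of 0.70 to 1.88 under 2,5-DCB and 0.34 to 1.00 under 4'-OH-2,5-DCB. For AT2G43610 they were AT4G25890, AT5G65880, AT5G26260, AT5G10830 and AT1G65985 (0.969 to 0.985), with changes of 0.23 to 1.34 and 0.62 to 2.56. The upper ends of both ranges came from AT5G26260, and the other 4 had at most 0.53 and 1.02. For AT2G43590 they were AT3G08980, AT4G11440, AT1G77840, AT5G55580 and AT2G30050 (0.936 to 0.963), and for AT2G43580 they were AT4G08630, AT5G38910, AT3G13430, AT3G58230 and AT2G01330 (0.953 to 0.974). No gene was among the most alike of more than 1 member, and no member was among those of another. These values of r share the 9 arrays and the 3 groups and are given as a description. Genes ranked on these arrays follow the pattern of their member by choice, so their changes are a description too.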

How the data were processed

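The 9 arrays are whole-transcript Affymetrix arrays of total RNA, and the deposited values are 1 log2 signal per probe set. Per the submitters' processing notes the authors used Affymetrix Expression Console. Its version, its background correction and the genome build are not stated, so no coordinates are printed. The deposited table held 38408 probe sets, with 0 further sample columns. Of these, 16722 were paired with 1 gene in the platform annotation and tested, and 759 with several genes and 20927 unnamed probe sets were left out. Gene IDs were matched to the RefSeq genes of TAIR10.1 for current symbols (16574 matched).

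All 9 arrays were fitted in limma 3.58.1 (R 4.3.3) with a mean for each group and 1 spread shared by all. Contrasts were two-sided, with Benjamini-Hochberg adjustment over all 16722 probe sets and calls at 0.05. Intervals are unadjusted 95% intervals on the log2 scale. The number of arrays limits the precision. The fit was tested on simulated data.

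The members and the 9 gene lists were chosen with earlier results of these data known. All members are named. From a list or the neighbours, at most 6 called genes are named, or the 2 smallest p-values where none was called, and 5 genes of similar pattern are named per member. Alternatives were quantile normalization, median centring, leaving out dim probe sets (mean below the 25th percentile), testing all probe sets, fitting only the groups compared, trend and robust options, array weights, the replicate number as a block, and each array left out. Those for lists, neighbours and within-array differences were added after seeing the data.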

Additional observations from a re-analysis of the deposited data

How the results depend on the processing

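The refitted changes left out CHI under 2,5-DCB, and both CHI and AT2G43610 between the exposures. Of 204, 158 kept their direction and side of the threshold, 37 lost the call, 4 gained it and 5 changed sign. AT2G43610 in each comparison with control stayed in. Its arrays also entered the value on which the cluster was picked, so this tally supports nothing about the cluster. The changes of sign were all in the contrast of the exposures and near 0. For AT2G43580 the value was 0.00 when replicate 1 of 2,5-DCB was left out, and 0.13 or 0.07 when replicate 2 or 3 of the hydroxylated compound was (range -0.39 to 0.13). For AT2G43590 it was -0.03 or -0.02 when replicate 3 of either exposure was left out (range -0.03 to 0.23). Without CHI, 3 of 4 members were called under 2,5-DCB. This count was 1 with all probe sets, 4 with array weights or with only the groups compared, and 1 to 4 when single arrays were omitted. Of all probe sets, 14.7% were called with array weights and 10.3% with only the groups compared, beside 4.65% in the main fit. The count under 4'-OH-2,5-DCB (3) was 1 with only the groups compared, and 1 to 3 when single arrays were omitted. Wherever it was 1, the gene called was AT2G43610. In the contrast of the exposures, CHI and AT2G43610 were left out, and 0 of the other 3 members were called. With array weights 1 was called, AT2G43620, which was lower with the hydroxylated compound (log2 change -0.91, limma adjusted p 0.0319). In that setting 2.09% of all probe sets were called in this contrast, beside 0.00% in the main fit. The weight of 4'-OH-2,5-DCB replicate 1 was 0.065 there. The count of members stayed at 0 in every other setting and with any 1 array left out. With the replicate number as a block these counts were 1, 1 and 0. Same-numbered arrays did not deviate together (r of -0.247 to 0.0742 in 9 pairs, and the closest array had the same number in 4 of 18 cases), so the numbers were not taken to pair the arrays. Leaving out an array also leaves fewer arrays to estimate the spread, and the cause of lost calls was not tested further. Dim probe sets limit AT2G43580 and AT2G43600, and no detection calls were used.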
